A study of Mus musculus with 30 samples.

Results

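The transcriptome of Sp1 DNA-binding mutant hemogenic endothelium was compared with that of WT cells at the HE1 stage. The 4 samples with these labels, HE1_Sp1_deltaDBD replicates 1 and 2 and HE1_WT replicates 1 and 2, were taken from a series of 30 RNA-seq samples that covers 5 stages of blood cell development from E14 mouse embryonic stem cells (ESC) in WT, Sp1_deltaDBD and Sp3KO genotypes. HE1 cells were sorted at day 2 of blast culture as KIT+, CD41- and Tie2+ cells grown from Flk1+ cells. Both genotypes are on the E14 background and no further treatment separated them. The Sp1_deltaDBD cells carry on both alleles a truncated Sp1 without the part that binds DNA. They come from a single ESC line and are compared with a single E14 WT line. A difference that arose in either line for another reason cannot be told apart from an effect of the mutation. Each group has 2 samples, which the study describes as biological replicates. A FPKM value, a level scaled by transcript length and by the fragments mapped in the sample, was given for 14685 genes, and the 14525 above 1 FPKM in at least 1 of the 30 samples were tested with limma on log2(FPKM + 0.1). Genes with a Benjamini-Hochberg adjusted p under 0.05 over all of them are described as called.

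Hemogenic endothelium is the vessel wall tissue of the embryo that gives rise to blood cells. Its cells express endothelial genes together with low levels of blood cell regulators, and pass through the endothelial-to-hematopoietic transition, in which the endothelial program is switched off and surface CD41 appears. Sp1 is a zinc finger factor found in nearly all cells that binds GC boxes, GC-rich sequences common in promoters. It shares these sites with Sp3, Sp4 and several Klf factors.

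The labelled cell type was checked against its markers. Tek, which encodes Tie2, had 135 and 205 FPKM in WT replicates 1 and 2 and 141 and 234 FPKM in the Sp1 mutant replicates. Kit had 16.9 and 26.8 FPKM in WT and 13.9 and 23.9 FPKM in the mutant. The endothelial cadherin Cdh5 had 402 and 501 FPKM in WT and 480 and 591 FPKM in the mutant. Endothelial genes were thus among the highly expressed genes of each sample, and Kit transcripts were present in each. Itga2b, which encodes CD41, had 34.8 and 49.2 FPKM in WT and 42.8 and 55.7 FPKM in the mutant although the cells were sorted as CD41 negative, and 84.6 and 147 FPKM in WT HE2, the stage after HE1 that is CD41 positive. Of the other cells a gate could hold, the leukocyte gene Ptprc and the adult globin gene Hbb-bt were at the lowest value of the table in all 4 samples, and Pou5f1 was at most 0.13 FPKM. Embryonic globin transcripts were present, however. Hba-x had 36.7 and 6.18 FPKM in WT and 5.29 and 1.53 FPKM in the mutant. Hbb-y had 8.64 and 7.75 FPKM in WT and 2.41 and 0.497 FPKM in the mutant. Smooth muscle genes and the keratin genes Krt8 and Krt18 were higher in replicate 1 of both genotypes: Acta2 had 1140 and 224 FPKM in WT and 631 and 139 FPKM in the mutant.

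Replicates correlated with r = 0.974 in WT and 0.969 in the mutant across genes on the log2 scale, and samples of different genotype with r = 0.94 to 0.964. The values of the samples had been quantile normalised together by the authors, so that their medians were equal (7.19 FPKM). The depth behind each value is unknown. Sp1 itself had 25.6 and 24.9 FPKM in WT and 19.9 and 27.9 FPKM in the mutant, a log2 difference of -0.10 ± 0.168 (SE, n = 2 against 2, limma adjusted p = 0.801). At other stages Sp1 was called lower in the mutant, in Flk1 cells (-0.63, adjusted p = 0.0311), HE2 (-0.56, 0.0404) and progenitors (-0.76, 0.00788). In ESC it was not called (-0.38, 0.217). The mutation deletes a part of the gene, so a value over the whole gene does not check the genotype labels.

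In the Sp1 mutant, 826 genes were called higher (5.69% of those tested) and 632 were called lower (4.35%). The falls were larger than the rises. The median log2 difference was -1.34 in genes called lower, 403 of which fell more than 2-fold, and 0.85 in genes called higher, 315 of which rose more than 2-fold. In 630 of the 632 and all 826 the mutant samples did not overlap the WT samples, whereas this was so with both mutant samples lower in 19.9% and with both higher in 30.1% of all genes tested. By a rule without a test, a change of more than 2-fold where the larger group mean exceeded 3 FPKM, 416 genes were lower (4.2%) and 210 were higher (2.12%) of the 9915 genes with such a mean. The counts depended on single libraries. They were 250 higher and 249 lower without mutant replicate 2, 324 and 313 without WT replicate 1, and 592 and 416 without WT replicate 2. In HE1 samples fitted alone with the Sp3KO samples of that stage they were 101 and 119. An exact two-sided permutation test between pairs of samples reaches 0.333 at the lowest, and the calls therefore rest on a spread that is shared between genes and between the 15 groups of samples.

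**Figure D1:**
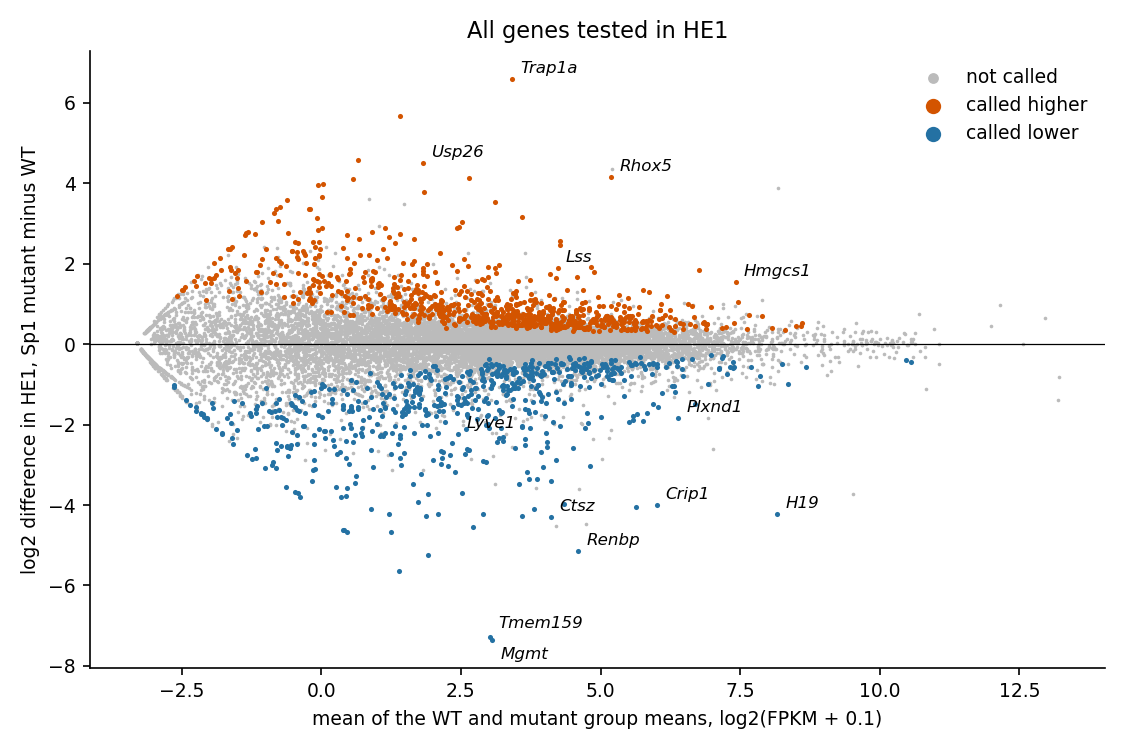
Log2 difference between Sp1 mutant and WT HE1 for each of the 14525 genes tested (y axis) against the mean level (x axis, log2 of FPKM + 0.1). Each point is a gene, with the 826 genes called higher in orange and the 632 called lower in blue, and the falls reach further from 0 than the rises.

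Among the 12 genes with the largest falls, several were lost almost entirely. Mgmt, which repairs alkylated guanine in DNA (GRCm38 chr7:136894614-137130266, plus strand), had 16.2 and 16.8 FPKM in WT and was at the lowest value of the table in both mutant samples (adjusted p = 1.14e-10). Tmem159, a lipid droplet protein gene, had 12.5 and 19.6 FPKM in WT and was also at the lowest value in both mutant samples (adjusted p = 8.74e-12). Prelid2 had 6.34 and 3.83 FPKM in WT and was at the lowest value in both mutant samples (adjusted p = 0.00106). No fold change is given for these 3 genes, since it would depend on the pseudocount. Smim20 (7.13 and 7.25 FPKM) and Fah, which acts in tyrosine breakdown (5.38 and 3.52 FPKM), were at the lowest value in mutant replicate 2 and at 0.27 and 0.201 FPKM in mutant replicate 1.

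The other large falls left measurable transcript. Renbp, which epimerises N-acetylglucosamine (chrX:73922121-73930850, minus strand), had 35.3 and 58.6 FPKM in WT and 0.749 and 1.85 FPKM in the mutant, 35.5-fold lower (log2 difference -5.15 ± 0.399, adjusted p = 1.08e-07). The glutathione transferase gene Gstk1 had 11.9 and 13.1 FPKM in WT and 0.436 and 0.438 FPKM in the mutant, 23.4-fold lower (adjusted p = 4.84e-06). The lysosomal protease gene Ctsz had 35.2 and 30.3 FPKM in WT and 2.25 and 1.08 FPKM in the mutant, 19.6-fold lower (adjusted p = 1.24e-07). In each of them the groups lay far apart compared with the distance between replicates. Ano10, of the anoctamin membrane protein family, fell from 23.1 and 22.6 to 1.88 and 0.614 FPKM, 19.3-fold. H19, an imprinted long non-coding RNA (chr7:142575529-142578143, minus strand), was the most abundant of these transcripts with 531 and 550 FPKM in WT, against 31.6 and 26.3 FPKM in the mutant, 18.7-fold lower (adjusted p = 0.000146). The lactonase gene Pon3 and the sugar kinase gene Fggy were 19.1-fold and 18.7-fold lower.

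The 12 genes with the largest rises were low or absent in WT HE1. Trap1a, a tumour antigen gene (chrX:139333683-139338169, plus strand), had 0.204 FPKM in WT replicate 1 and was listed at 0 in WT replicate 2, whereas the mutant samples had 33.7 and 8.40 FPKM (adjusted p = 0.00011). Rhox5, a reproductive homeobox gene on chromosome X, had 3.06 and 4.57 FPKM in WT and 73.7 and 64.2 FPKM in the mutant, 17.9-fold higher (log2 difference 4.16 ± 0.29, adjusted p = 2.59e-08). Usp26, a deubiquitinase gene of chromosome X known from testis, rose from 0.37 and 0.0855 to 6.86 and 6.44 FPKM, 22.8-fold (adjusted p = 9.33e-06). These 3 genes were near or below 5 FPKM in both WT samples. Stag3, a subunit of meiotic cohesin, rose from 0.761 and 1.88 to 11 and 20.4 FPKM, 11.5-fold (adjusted p = 3.58e-05). Dppa2, a chromatin factor of pluripotent cells, rose from 0.555 and 0.244 to 8.03 and 5.10 FPKM, 13.7-fold (adjusted p = 0.00401).

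The remaining large rises were of genes of diverse roles. Ctse, an aspartic protease gene, rose from 1.83 and 2.93 to 20.8 and 22.3 FPKM, 8.96-fold. The lysophosphatidic acid receptor gene Lpar1 rose from 1.31 and 1.08 to 10.6 and 8.74 FPKM, 7.54-fold. Cbx7, a Polycomb chromodomain protein gene, rose from 1.26 and 1.14 to 9.51 and 9.37 FPKM, 7.36-fold (adjusted p = 4.63e-08). In all 3 the replicates of a group differed by far less than the groups did. The scramblase family gene Plscr2 rose 7.35-fold. Kctd12 was at the lowest value in both WT samples and had 4.28 and 5.97 FPKM in the mutant (adjusted p = 0.0257), but was not called when any of the 4 samples was left out (adjusted p = 0.0619 to 0.153). The other 23 of these 24 genes were called without each sample in turn.

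**Figure D2:**
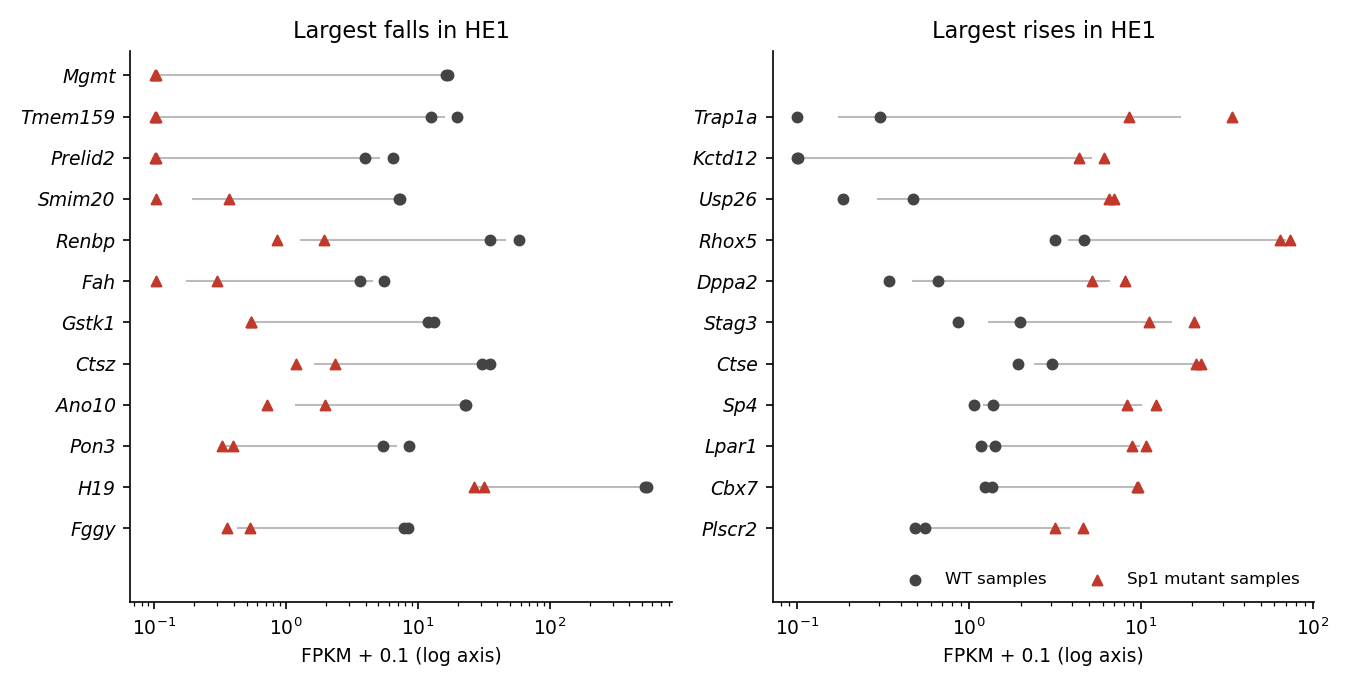
FPKM + 0.1 in each of the 4 HE1 samples (x axis, log scale) for the 12 genes with the largest falls (left) and 11 of those with the largest rises (right). Circles are the 2 WT samples, triangles the 2 Sp1 mutant samples and the grey line joins the geometric means of the groups. In each gene drawn the mutant samples lie to the same side of both WT samples.

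Promoters of some genes at both ends are shown since Sp1 binds GC boxes. They are the RefSeq windows of 300 bases (GRCm38.p6, 250 before to 50 after the annotated start, 5′ to 3′ on the strand of the gene), with the GC box letters GGGCGG or CCGCCC, the same sequence on the other strand, in capitals. Renbp at chrX:73930801-73931100 (minus strand) held 2, Ctsz at chr2:174438990-174439289 (minus strand) held 3 and Ano10 at chr9:122294374-122294673 (minus strand) held 5. Usp26 at chrX:51801184-51801483 (minus strand) and Trap1a at chrX:139333433-139333732 (plus strand) held none, and Sp4 at chr12:118301391-118301690 (minus strand), which rose, held 5. Among other large falls, not shown, Smim20, Gstk1 and Pon3 held 1, Fggy 2, Mgmt 4 and Fah 5. Among other large rises, not shown, Rhox5 held 0, Stag3, Lpar1 and Cbx7 held 1 and Kctd12 held 7. The sequences of Renbp, Ctsz, Ano10, Usp26, Trap1a and Sp4 are:
Renbp: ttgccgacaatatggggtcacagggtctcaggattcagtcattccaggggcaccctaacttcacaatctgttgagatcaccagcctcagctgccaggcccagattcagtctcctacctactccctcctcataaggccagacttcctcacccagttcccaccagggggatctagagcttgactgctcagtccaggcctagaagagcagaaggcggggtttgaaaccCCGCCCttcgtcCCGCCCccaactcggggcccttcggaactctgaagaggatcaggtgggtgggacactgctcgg
Ctsz: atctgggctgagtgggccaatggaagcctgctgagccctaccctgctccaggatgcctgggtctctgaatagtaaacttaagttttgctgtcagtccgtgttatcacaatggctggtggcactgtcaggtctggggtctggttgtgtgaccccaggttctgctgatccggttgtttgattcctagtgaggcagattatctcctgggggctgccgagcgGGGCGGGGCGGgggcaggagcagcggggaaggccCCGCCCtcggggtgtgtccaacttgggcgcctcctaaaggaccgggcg
Ano10: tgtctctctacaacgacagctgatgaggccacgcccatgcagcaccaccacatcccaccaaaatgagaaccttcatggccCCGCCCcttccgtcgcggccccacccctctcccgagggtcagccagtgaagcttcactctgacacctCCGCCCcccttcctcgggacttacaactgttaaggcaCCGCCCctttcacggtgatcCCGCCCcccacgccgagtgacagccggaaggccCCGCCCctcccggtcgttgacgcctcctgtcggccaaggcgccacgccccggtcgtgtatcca
Usp26: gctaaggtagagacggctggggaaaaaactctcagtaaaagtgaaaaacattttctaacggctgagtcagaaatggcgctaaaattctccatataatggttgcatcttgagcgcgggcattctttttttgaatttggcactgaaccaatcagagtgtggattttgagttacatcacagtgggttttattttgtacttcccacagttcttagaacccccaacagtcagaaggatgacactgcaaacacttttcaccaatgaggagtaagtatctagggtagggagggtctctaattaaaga
Trap1a: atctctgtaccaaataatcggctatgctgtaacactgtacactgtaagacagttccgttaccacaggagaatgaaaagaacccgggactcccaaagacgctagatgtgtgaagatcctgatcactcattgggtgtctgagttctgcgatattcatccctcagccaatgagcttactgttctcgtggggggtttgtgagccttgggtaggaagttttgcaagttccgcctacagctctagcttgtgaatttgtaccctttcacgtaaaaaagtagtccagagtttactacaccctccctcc
Sp4: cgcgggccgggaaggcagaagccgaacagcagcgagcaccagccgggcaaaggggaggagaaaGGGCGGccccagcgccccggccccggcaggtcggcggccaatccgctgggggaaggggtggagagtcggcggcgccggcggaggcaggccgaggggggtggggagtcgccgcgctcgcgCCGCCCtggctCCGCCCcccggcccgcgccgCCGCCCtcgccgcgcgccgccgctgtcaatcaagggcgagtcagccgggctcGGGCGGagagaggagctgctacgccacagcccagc

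A promoter was matched for 11182 of the genes tested. At least 1 GC box was found in 63.1% of all of them, in 70.8% of the 504 promoters of genes called lower and in 61.8% of the 660 of genes called higher. Genes that fell by more than 2 on the log2 scale had one in 73.1% of 134 promoters, and genes that rose by more than 2 in 40.3% of 62. The CCAAT box (CCAAT or ATTGG), bound by NFY, was found in 39.1% of all promoters, 32.7% of those of genes called lower and 47.7% of those of genes called higher. Overlapping matches were each counted. These are descriptions of letters in a window, and the median GC content of these promoters was 60.7% in the genes called lower, 61.0% in those called higher and 60.7% in all. It was 60.3% in the genes that fell by more than 2 and 55.7% in those that rose by more than 2, the group with the lowest GC box share, and the part of GC content in that share was not tested.

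The transcripts of other Sp and Klf factors were examined next. Sp4 (chr12:118234933-118301440, minus strand) had 0.972 and 1.28 FPKM in WT and 8.23 and 12.1 FPKM in the mutant, 8.30-fold higher (log2 difference 3.05 ± 0.229, adjusted p = 6.71e-08), and was called without each sample in turn. Sp3 rose from 25.9 and 26.3 to 40.3 and 45.3 FPKM, 1.64-fold (adjusted p = 0.021). The groups of both genes were apart, and Sp3 remained the more abundant of them. Klf8 rose from 3.55 and 2.94 to 6.02 and 11.4 FPKM, 2.52-fold (adjusted p = 0.0105). Klf4 fell from 10 and 15.2 to 3.56 and 5.74 FPKM, 2.69-fold (adjusted p = 0.00732). Klf9 fell from 9.01 and 12.5 to 6.04 and 6.82 FPKM (adjusted p = 0.0291). In all, 3 of the 23 family members tested were called higher and 2 lower, and the median log2 difference of the 23 was -0.10, against 0.02 over all genes tested. Sp3 and Klf8 lost the call without mutant replicate 2 (adjusted p = 0.169 and 0.198), and Klf4 and Klf9 without WT replicate 2 (0.0812 and 0.237) or mutant replicate 1 (0.0717 and 0.114). Sp3 was also not called without WT replicate 1 (0.106) or 2 (0.0705), Klf8 without WT replicate 2 (0.0695) and Klf9 without mutant replicate 2 (0.0889).

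Genes of cholesterol synthesis rose together. This pathway builds sterols from acetyl-CoA through mevalonate and squalene, and its genes are switched on by SREBP2 when the sterol content of the cell is low. Of 26 members tested, 16 were called higher (61.5%, against 5.69% of all genes) and 1 was called lower, and their median log2 difference was 0.84, against 0.02 over all genes. Their summed level was 782 and 758 FPKM in WT and 1450 and 1390 FPKM in the mutant.

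The rise was seen along the length of the pathway. Hmgcs1, which makes HMG-CoA, had 88.6 and 84.6 FPKM in WT and 226 and 284 FPKM in the mutant, 2.92-fold higher (log2 difference 1.55 ± 0.185, adjusted p = 2.27e-05). Idi1, which isomerises isopentenyl diphosphate, had 15.1 and 11.2 FPKM in WT and 45.9 and 45.1 FPKM in the mutant, 3.48-fold higher (adjusted p = 1.74e-05). The replicates of each group were close together at these early steps. After squalene, the lanosterol synthase gene Lss (chr10:76531588-76557138, plus strand) had 8.47 and 7.21 FPKM in WT and 31.6 and 27.3 FPKM in the mutant, the smallest adjusted p of the list (3.72-fold higher, log2 difference 1.90 ± 0.162, adjusted p = 4.38e-07). Nsdhl, which removes methyl groups from sterols, had 13.5 and 10.1 FPKM in WT and 30.5 and 29.6 FPKM in the mutant, 2.56-fold higher (adjusted p = 2.38e-05). Tm7sf2, a sterol reductase gene, had 3.60 and 4.05 FPKM in WT and 15 and 11.7 FPKM in the mutant (log2 difference 1.77).

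Most other steps had smaller rises. Mvd, Fdft1, Sqle, Msmo1, Sc5d and Dhcr7 were called with log2 differences of 0.81 to 0.95, Cyp51 with 0.59 and the sterol carrier gene Stard4 with 0.53. Insig1, which holds back SREBP in the sterol-replete cell and is itself an SREBP target, rose from 20.5 and 28.5 to 56.4 and 56.1 FPKM (log2 difference 1.22, adjusted p = 0.000871). Srebf1, the gene of SREBP1, was the member that fell, from 20.3 and 18.9 to 11.1 and 8.30 FPKM (log2 difference -1.02, adjusted p = 0.000461). Members without a call included Srebf2 (log2 difference 0.13, 95% interval -0.25 to 0.50) and Scap (0.12, -0.19 to 0.44). Mvk, Pmvk, Fdps, Hsd17b7 and Ebp were not called either. Of the 17 calls in the list, 14 were kept without each sample in turn. Stard4 was lost without WT replicate 1 (adjusted p = 0.221), WT replicate 2 (0.0729) or mutant replicate 2 (0.336), Cyp51 without WT replicate 1 (0.0748) or mutant replicate 1 (0.0516), and Mvd without mutant replicate 1 (0.0718). With the HE1 samples of the 3 genotypes fitted alone, 10 members were called higher.

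**Figure D3:**
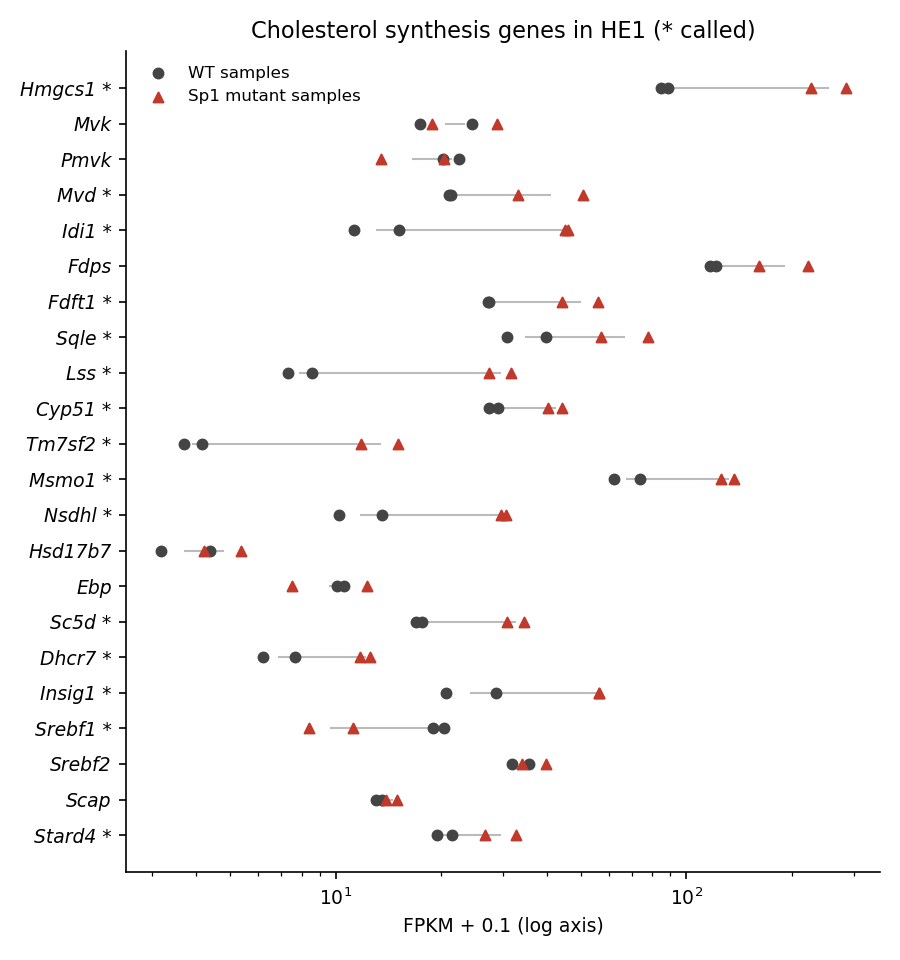
FPKM + 0.1 (x axis, log scale) of 22 cholesterol synthesis genes in the 4 HE1 samples, with circles for WT, triangles for the Sp1 mutant and grey lines between the geometric means. Asterisks mark the 15 genes called, of which Srebf1 alone lies lower in the mutant.

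The promoter of Hmgcs1 is shown because of the joint rise of these genes and because it holds the letters CACCCCAC, the core of a known sterol regulatory element, given in capitals. The motif, on either strand, was found in 1 of the 18 promoters matched for this list and in 332 of all 11182 (2.97%), so that within this window the letters were rare in both. The motif was chosen after the results were seen. The window lies at chr13:119690101-119690400 (plus strand, GRCm38.p6, from RefSeq):
Hmgcs1: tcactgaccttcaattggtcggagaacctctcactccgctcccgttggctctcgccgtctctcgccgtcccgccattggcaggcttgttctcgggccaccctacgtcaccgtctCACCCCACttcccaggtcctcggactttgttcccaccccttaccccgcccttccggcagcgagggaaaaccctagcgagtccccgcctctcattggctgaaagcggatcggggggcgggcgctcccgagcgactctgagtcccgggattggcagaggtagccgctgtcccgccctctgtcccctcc

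Of 42 endothelial identity genes tested, 1 was called higher (2.38%, against 5.69% of all genes) and 3 were called lower (7.14%, against 4.35%), with a median log2 difference of -0.26. Cd34, a surface sialomucin of endothelial and blood progenitor cells, fell from 139 and 153 to 92.1 and 29.5 FPKM, with the lower value in replicate 2 (log2 difference -1.48 ± 0.464, adjusted p = 0.0487). Lyve1, a hyaluronan receptor, fell from 8.55 and 9.26 to 1.54 and 2.12 FPKM, 4.71-fold (adjusted p = 0.000123), and Klf4, given above, was the third. Emcn, which encodes endomucin, rose from 9.89 and 12.7 to 41.5 and 31.6 FPKM, 3.21-fold (adjusted p = 0.033). Lyve1 alone of the 4 was called without each sample in turn. Emcn was not called when any 1 sample was left out (adjusted p = 0.0708 to 0.189), and Cd34 had a log2 difference of -0.66 without mutant replicate 2 (0.572) and was not called without WT replicate 1 (0.154) or 2 (0.159). The other 38 members, among them Cdh5 (log2 difference 0.25, 95% interval -0.39 to 0.88), Kdr (0.12, -0.43 to 0.66), Pecam1 (-0.38, -0.97 to 0.20) and Sox17 (0.29, -0.51 to 1.10), were not called. The sorted markers Kit (-0.22, -0.93 to 0.48), Tek (0.13, -0.50 to 0.75) and Itga2b (0.24, -0.75 to 1.22) were not called.

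Of 30 hematopoietic transcription factors tested, 1 was called higher (3.33%) and 0 lower, with a median log2 difference of 0.15. Lmo2, a LIM-only bridging protein of the blood regulator complex, rose from 19.1 and 26.0 to 44.9 and 41.1 FPKM, 1.92-fold (log2 difference 0.94 ± 0.214, adjusted p = 0.00837), and lost the call without WT replicate 1 (0.124). Runx1, the regulator of the endothelial-to-hematopoietic transition, had 4.66 and 1.33 FPKM in WT and 3.99 and 4.24 FPKM in the mutant, so that the groups overlapped (log2 difference 0.69, 95% interval -0.77 to 2.16, adjusted p = 0.612). Tal1 (-0.07, -0.80 to 0.66), Fli1 (0.25, -0.38 to 0.88) and Gata2 (-0.18, -0.63 to 0.27) were not called.

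Genes of differentiated blood cells were examined in 3 lists, to be read against 5.69% higher and 4.35% lower of all genes. Of 33 erythroid genes tested, 3 were called higher (9.09%) and 2 lower (6.06%). The embryonic globin genes fell: Hbb-y had 8.64 and 7.75 FPKM in WT and 2.41 and 0.497 FPKM in the mutant (adjusted p = 0.00669), and Hba-x had 36.7 and 6.18 FPKM in WT and 5.29 and 1.53 FPKM in the mutant (adjusted p = 0.0328). The carbonic anhydrase gene Car2 rose from 29.0 and 23.7 to 43.3 and 41.3 FPKM (log2 difference 0.69), and the transferrin receptor gene Tfrc from 11.8 and 15.9 to 19.2 and 32.2 FPKM (0.86). Without mutant replicate 2 the adjusted p was 0.164 for Hbb-y, 0.368 for Hba-x and 0.386 for Tfrc, and without WT replicate 1 it was 0.0533, 0.445 and 0.25. Of 27 megakaryocyte genes, 3 were called higher (11.1%) and 3 lower (11.1%), among them the tetraspanin gene Cd9, which fell from 55.6 and 53.3 to 41.1 and 20.9 FPKM (adjusted p = 0.0373, and 0.508 without mutant replicate 2, 0.163 without WT replicate 1 and 0.102 without WT replicate 2). Of 25 myeloid genes, 4 were called higher (16.0%) and 0 lower, all 4 below 6 FPKM and none kept without each sample in turn, led by the myeloperoxidase gene Mpo with 0.477 and 0.949 FPKM in WT and 2.15 and 5.11 FPKM in the mutant (adjusted p = 0.00654, and 0.139 without mutant replicate 2 and 0.0975 without WT replicate 1).

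Notch signalling specifies arterial and hemogenic endothelium, and 4 of 28 Notch pathway genes tested were called lower (14.3%, against 4.35% of all genes) and 0 higher. Of the 28 differences 10 were positive and 18 negative, and their median was -0.18. The receptor gene Notch4 fell from 10.4 and 13.8 to 4.39 and 2.77 FPKM, 3.36-fold (log2 difference -1.75 ± 0.385, adjusted p = 0.0069). The ligand gene Dll4 fell from 5.07 and 3.10 to 1.21 and 1.13 FPKM, 3.21-fold (adjusted p = 0.00772). The target gene Hey1 fell from 6.66 and 10.4 to 2.29 and 6.04 FPKM (adjusted p = 0.048), and the glycosyltransferase gene Mfng, which modifies Notch, from 2.04 and 2.19 to 0.709 and 0.515 FPKM (0.0118). Notch1 (log2 difference -0.32, 95% interval -0.74 to 0.11), Rbpj (-0.03, -0.41 to 0.36) and Hes1 (-0.23, -1.52 to 1.07) were not called. The Notch calls were sensitive to single samples: 3 members were called without mutant replicate 1 and 1 when any of the other samples was left out, and 0 with the HE1 samples fitted alone.

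In the BMP and TGF-beta pathway, 3 of 36 members were called lower (8.33%, against 4.35% of all genes) and 1 higher (2.78%, against 5.69%). Bmper, a secreted BMP modulator, fell from 10.8 and 19.2 to 2.94 and 3.76 FPKM, 4.23-fold (adjusted p = 0.00111), and was called without each sample in turn. The ligand gene Tgfb1 fell from 22.5 and 16.3 to 8.49 and 4.32 FPKM, 3.12-fold (0.00162, and 0.0547 without mutant replicate 2). Ltbp1, which tethers latent TGF-beta, fell from 13 and 16.6 to 6.82 and 8.67 FPKM (0.0264, and 0.0546 to 0.162 when any 1 of the 4 samples was left out). Of 31 genes of VEGF, angiopoietin and guidance signalling, 4 were called lower (12.9%) and 1 higher (3.23%). The semaphorin receptor gene Plxnd1 fell from 125 and 133 to 53.5 and 24.4 FPKM, 3.56-fold (adjusted p = 0.0188), and the semaphorin genes Sema3f and Sema3g fell 2.62-fold and 3.0-fold. Dll4 is in this list as well, and Robo1 rose 1.69-fold. None of these calls was kept without mutant replicate 2, where the adjusted p was 0.255 for Plxnd1, 0.122 for Sema3f, 0.186 for Sema3g, 0.0674 for Dll4 and 0.455 for Robo1. Plxnd1, Sema3g and Robo1 were also not called without WT replicate 1 (0.0854, 0.0909 and 0.151) or WT replicate 2 (0.0773, 0.0861 and 0.143), Dll4 without WT replicate 1 (0.109) and Sema3f without WT replicate 2 (0.11).

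Mdk, Crip1 and Klf2 were picked out by the study in single-cell data of E14 WT and Sp1 mutant cells, and are given here in the sorted HE1 samples. The study had already described Mdk and Crip1 in these bulk populations. It called the fall of Mdk modest at every stage but ESC, and saw a change of Crip1 from ESC on. The HE1 values are therefore not independent of what the study reported. By limma here, Crip1 was not called in ESC (log2 difference -0.99, adjusted p = 0.669) or Flk1 cells (-0.61, 0.831). It was called lower in HE2 (-4.81, 0.00322) and progenitors (-4.73, 0.00379). Mdk was not called in ESC (-0.14, 0.907), Flk1 cells (-0.35, 0.67) or HE2 (-0.92, 0.0866), and was called lower in progenitors (-1.29, 0.0198). Crip1, a LIM domain protein gene, had 114 and 127 FPKM in WT and 11.1 and 4.94 FPKM in the mutant, 15.9-fold lower (log2 difference -4.0 ± 0.954, adjusted p = 0.012). Mdk, which encodes the growth factor midkine, had 99.4 and 78.8 FPKM in WT and 43.8 and 22.9 FPKM in the mutant, 2.79-fold lower (adjusted p = 0.00776). Klf2, a flow-responsive endothelial factor gene, had 39.5 and 52.4 FPKM in WT and 25.4 and 24.5 FPKM in the mutant, and was not called (log2 difference -0.86, 95% interval -1.88 to 0.16, adjusted p = 0.30). All 3 were lower in both mutant samples than in both WT samples. Without mutant replicate 2 the adjusted p was 0.134 for Crip1 and 0.163 for Mdk, and without WT replicate 1 it was 0.0633 and 0.0825, and 0.0572 for Crip1 without WT replicate 2. Among 17 LIM-only and midkine family genes tested, which include Crip1 and Mdk, Lmo2 was called higher (5.88%, against 5.69% of all genes). Called lower were 3 (17.6%, against 4.35%), the last being the syndecan gene Sdc1 (1.79-fold lower, adjusted p = 0.0259). Sdc1 was not called without mutant replicate 2 or WT replicate 1.

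Of 41 cell cycle genes tested, 6 were called higher (14.6%, against 5.69% of all genes) and 1 lower, and the median log2 difference was 0.32, against 0.02 over all genes. Of these 7 calls, 2 were kept without each sample in turn. Ccna2, the cyclin of S and G2 phase, rose from 48.7 and 46.8 to 72.7 and 69.4 FPKM, 1.49-fold (adjusted p = 0.000712). Ccne1, a cyclin of entry into S phase, rose from 8.10 and 7.83 to 16.9 and 16.0 FPKM, 2.05-fold (0.00236). Both were called without each sample in turn. Ccnb1, Ccne2 and Bub1 were called with log2 differences of 0.40 to 0.87, each lost without at least 3 of the 4 samples. The cell cycle inhibitor gene Cdkn1a fell from 53.1 and 44.6 to 30.1 and 31.8 FPKM (log2 difference -0.65, adjusted p = 0.0412, and 0.0609 to 0.265 when any 1 sample was left out).

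Imprinted and chromatin genes included some of the largest differences. Of 28 imprinted genes tested, 0 were called higher and 3 lower (10.7%, against 4.35% of all genes): H19, given above, Phlda2, which fell from 1.38 and 3.48 FPKM to 0.177 FPKM in mutant replicate 1 and the lowest value of the table in mutant replicate 2 (adjusted p = 0.00023), and Nnat, which fell from 40.4 and 7.06 to 1.90 and 1.65 FPKM (0.00401, and 0.101 without WT replicate 1). Of 25 pluripotency genes, 3 were called higher (12%, against 5.69% of all genes) and 0 lower. Dppa4, the partner of Dppa2, rose from 6.55 and 4.95 to 39.7 and 25.7 FPKM, 5.53-fold (adjusted p = 0.00364), and the RNA-binding protein gene Lin28b from 16.8 and 21.1 to 28.4 and 43.9 FPKM (0.00385, and 0.107 without mutant replicate 2 and 0.0665 without WT replicate 1). The core factors Pou5f1, Nanog and Sox2 stayed at or below 0.13 FPKM in all 4 samples. Among 33 DNA methylation and Polycomb genes, Cbx7 and Eed, a core subunit of Polycomb complex PRC2, were called higher (6.06%, against 5.69% of all genes). Cbx6 was called lower (3.03%, against 4.35%), so both shares were near those of all genes. Eed had 19.7 and 20.2 FPKM in WT and 28.2 and 28.7 FPKM in the mutant (adjusted p = 0.0145), and Cbx6 had 8.81 and 10.1 against 6.86 and 6.61 FPKM (0.0493). Eed was not called without WT replicate 1 (0.089), WT replicate 2 (0.0519) or mutant replicate 2 (0.0979), and Cbx6 when any 1 sample was left out (0.088 to 0.24).

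Of 29 glutathione and NRF2 genes, 4 were called lower (13.8%, against 4.35% of all genes) and 0 higher, 1 of them kept without each sample in turn, with Gstk1 first, and Nqo1, a quinone reductase gene, fell from 8.83 and 8.25 to 3.55 and 2.81 FPKM (adjusted p = 0.0408, and 0.0662 to 0.245 when any 1 of the 4 samples was left out). Of 29 glycolysis and hypoxia genes, 3 were called higher (10.3%) and 1 lower (3.45%), the lactate transporter gene Slc16a3, which fell 2.86-fold (0.000915) and was called without each sample in turn. Of 26 Stat and cytokine genes, 1 was called higher (3.85%, against 5.69% of all genes) and 2 lower (7.69%). The interleukin 4 signal transducer gene Stat6 fell 2.72-fold (0.0161), and was not called without mutant replicate 2, WT replicate 1 or WT replicate 2. Ifnar2 was also called lower (0.0289) and Il6st higher (0.0347). Both lost the call without WT replicate 1 (0.102 and 0.119), WT replicate 2 (0.116 and 0.126) or mutant replicate 2 (0.356 and 0.422). Of 24 immediate early genes, which respond to handling of cells as well as to signals, 2 were called lower (8.33%) and 0 higher. Fosb fell from 15.2 and 14.9 to 2.47 and 3.47 FPKM (0.0179) and was not called when any 1 sample was left out. Ier3 fell from 5.68 and 4.45 FPKM to 1.96 FPKM and the lowest value (0.00972). It was not called without mutant replicate 2 or WT replicate 1. Of 26 basement membrane genes, 1 was called higher (3.85%) and 1 lower (3.85%). Col18a1 fell from 358 and 517 to 201 and 236 FPKM (0.0149), and was not called without WT replicate 2 or either mutant replicate. Lamb3 was called higher (0.00999), but not without WT replicate 1 or mutant replicate 2.

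Markers of cells outside the gate were summed over their lists. The 21 epithelial and endoderm genes had a summed level of 835 and 94.2 FPKM in WT and 271 and 26.7 FPKM in the mutant, with Krt8 at 386 and 35.4 against 93.7 and 3.80 FPKM and 0 of 21 called. Krt18 was at 323 and 27.3 against 129 and 5.26 FPKM, and these keratin genes made up most of the sum in replicate 1 of both genotypes. Only 4 of the 21 had a group mean above 3 FPKM. The defining marker Epcam was at most 0.115 FPKM. The 34 smooth and cardiac muscle genes had 3850 and 1390 FPKM in WT and 2460 and 1340 FPKM in the mutant. Of them, 1 was called higher (Mylk, 2.94%, against 5.69% of all genes) and 2 lower (5.88%, against 4.35%). The 27 mesenchymal genes had 1730 and 1490 FPKM in WT and 1200 and 1650 FPKM in the mutant with 0 called and a median log2 difference of -0.63, and Fn1 at 925 and 936 against 700 and 1260 FPKM. Thus the summed epithelial and muscle lists were higher in replicate 1 of each genotype than in replicate 2. The summed epithelial list was also higher in the WT samples than in the mutant samples of the same number. With Epcam near absent, whether epithelial cells were present was not tested. The part of cells outside the gate in the differences above was not tested. In sorted populations, fewer cells of a type and less RNA per cell cannot be told apart.

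**Figure D4:**
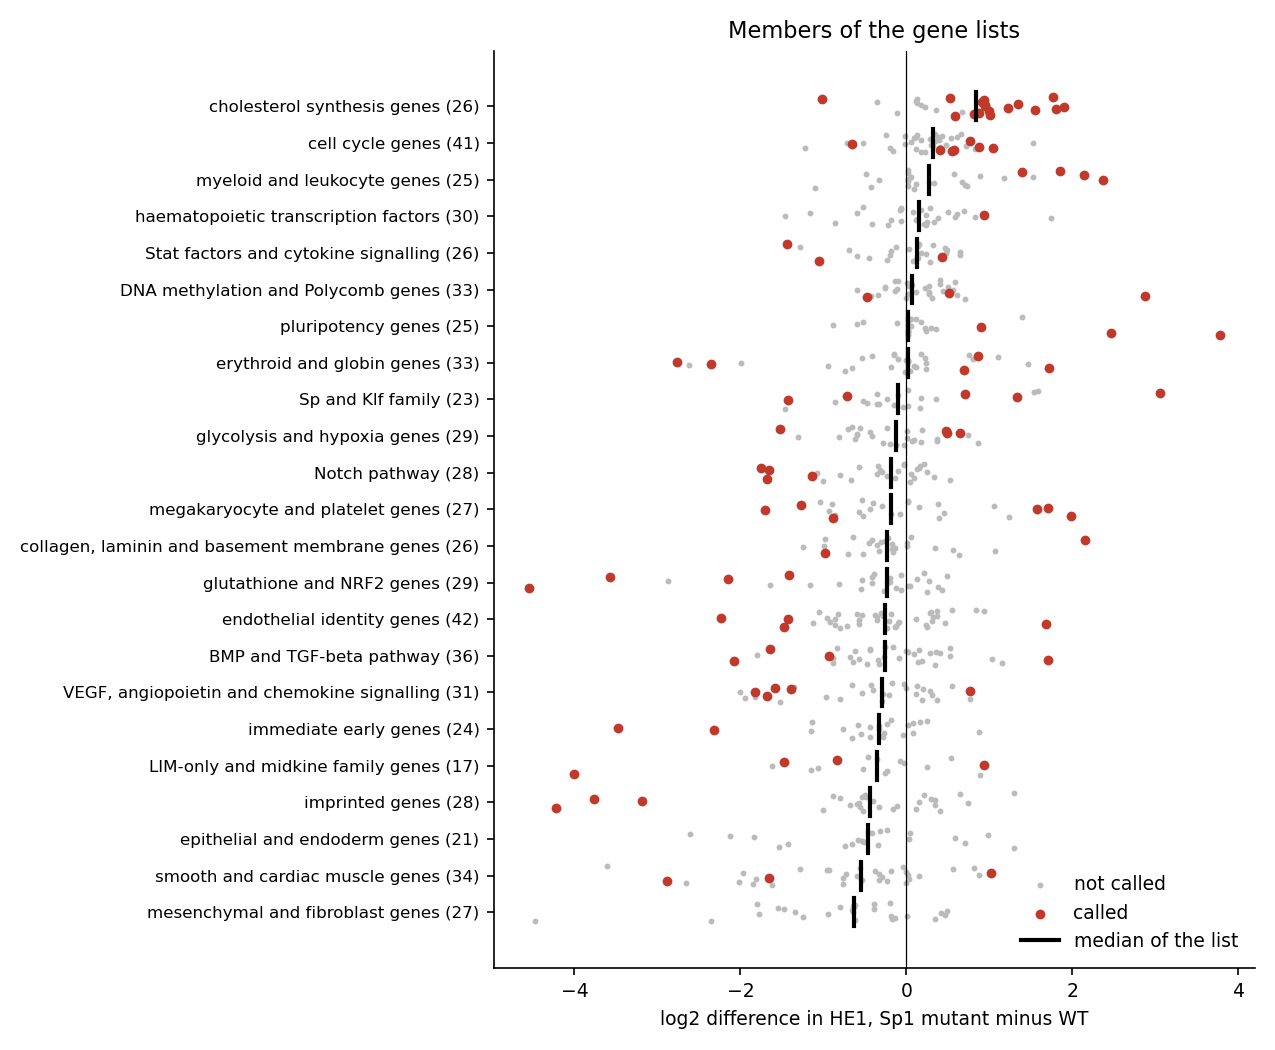
Log2 difference between Sp1 mutant and WT HE1 (x axis) for the members of 23 gene lists, with the number of members tested in parentheses. Each point is a gene, red where it was called, and the black bar is the median of the list, which is highest for the cholesterol synthesis genes (0.84) and lowest for the mesenchymal and fibroblast genes (-0.63).

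The genes called lower were unevenly spread over the chromosomes. On chromosome 11, 188 of 1205 genes tested were called lower (15.6%) and 10 higher (0.83%), and the median log2 difference of its 834 genes with a mean above 3 FPKM was -0.34. The medians of the other chromosomes were between 0.01 and 0.16, the highest being that of chromosome X. Each mutant sample was lower than each WT sample over chromosome 11, with medians of -0.30 to -0.33 in the 4 pairs. The same chromosome had a median of -0.21 in ESC, -0.14 in Flk1 cells, -0.36 in HE2 and -0.38 in progenitors of the Sp1 mutant, and of -0.27 in Sp3KO HE1 against the same WT samples. Outside chromosome 11, 810 genes were called higher and 442 lower of 13194. The copy number of the chromosome was not measured in these data. Genes named above that lie on it include Hba-x and Slc16a3, called lower, and Mpo, called higher. The part of the chromosome in their differences was not tested. The log2 difference also correlated with the GC content of the transcripts (Spearman rho -0.305 across 9875 genes, which are not independent), as did the difference between the mutant replicates (-0.302) but far less that between the WT replicates (-0.0383). With a correction for GC content and length, 941 genes were called higher and 724 lower.

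To see at which stage these differences arise, the mutant was compared with WT at the other stages, which use other samples. Of the genes called higher in HE1, 8.96% were called higher in ESC, 14.0% in Flk1 cells, 47.7% in HE2 and 30.6% in progenitors, where 2.80%, 2.92%, 4.70% and 3.75% of all genes were called higher. Of those called lower, 15.5%, 22.2%, 62.3% and 47.9% were called lower, against 3.26%, 2.62%, 4.97% and 5.04% of all genes. The 394 higher and 394 lower genes shared with HE2 were 57.7% and 54.6% of the HE2 lists, and the 116 and 140 shared with Flk1 were 27.4% and 36.8% of the Flk1 lists. In no other stage were 338 of the higher and 178 of the lower genes called, whereas 25 and 34 were called at all 5 stages. A missing call is not an absent difference. In HE2, 97.3% of the genes called higher in HE1 had a positive difference, against 56.3% of all genes tested. Of those called lower, 97.6% had a negative difference there, against 43.7% of all. HE1, HE2 and progenitor samples with the same number may come from the same culture, and their deviations from the group means correlated with r = 0.42 and 0.424 in WT and 0.71 and 0.507 in the mutant, so these stages may not be independent of HE1.

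Genes differed in when their change began. Rhox5 was already higher in mutant ESC (log2 difference 2.69, adjusted p = 1.93e-05) and in Flk1 cells (5.02), and Sp4 likewise (1.87 and 2.12). Usp26 rose by 1.76 in ESC and 3.49 in Flk1 cells. For Renbp the difference was -0.24 in ESC (adjusted p = 0.84), -2.15 in Flk1 cells, -5.15 in HE1 and -4.96 in HE2, and for Ctsz it was -0.74 (0.236), -2.02, -4.30 and -3.61. Cbx7 (0.39 in ESC, 0.49 in Flk1 cells, adjusted p = 0.337 and 0.211) was called from HE1 onwards. H19 was not called in ESC (0.42, adjusted p = 0.808) and fell by 2.96 in Flk1 cells, 4.22 in HE1 and 4.43 in HE2. Its level in ESC was low in WT (4.73 and 1.72 FPKM) and in the mutant (5.02 and 2.95 FPKM), which limits the fall that could show there. The effect on H19 did not differ by call between HE1 and Flk1 cells (-1.26, limma adjusted p = 0.572).

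The difference between stages was itself tested. The effect of the mutation differed between HE1 and Flk1 cells in 222 genes (1.53% of those tested), with 123 positive and 99 negative differences, of which 111 were called in HE1 alone of the pair, 76 in Flk1 alone and 11 in both with opposite sign. The count was 89 without mutant replicate 2 and 118 without WT replicate 1. Of the 26 cholesterol synthesis genes, 10 had an effect that was larger in HE1 than in Flk1 cells (0.847% of all genes) and 0 the other way, and 0 were called in Flk1 cells. Hmgcs1 had 143 and 163 FPKM in WT and 139 and 210 FPKM in mutant Flk1 cells, so that these groups overlapped, in contrast to HE1. Lss had 16.4 and 18.9 against 17.5 and 23.2 FPKM there.

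Endothelial genes showed the opposite order. In Flk1 cells 17 of the 42 were called higher in the mutant (2.92% of all genes) and 2 lower, with a median log2 difference of 0.69, and in 11 of the 42 the effect in HE1 was lower than that in Flk1 cells (0.682% of all genes). Cdh5 was higher by 2.28 in mutant Flk1 cells (adjusted p = 0.000111) and Icam2 by 3.13 (1.45e-06), whereas their differences in HE1 were 0.25 and -0.35 and not called. Cd34 had 0.319 and 0.261 FPKM in WT and 0.723 and 2.14 FPKM in mutant Flk1 cells, a rise of 1.80 (adjusted p = 0.0255), and fell in HE1. Tek had 1.22 and 1.29 FPKM in WT and 4.14 and 8.94 FPKM in mutant Flk1 cells (log2 difference 2.19, adjusted p = 0.00015), and did not differ beyond the replicate spread in HE1. All of these levels in Flk1 cells were far below those in HE1.

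Between HE1 and HE2 the effect differed in 1 gene of 14525 by limma (0.00688%), and 478 genes had an unadjusted p under 0.05 (3.29%). With a block for samples that may share a culture, 6 genes differed and 999 had an unadjusted p under 0.05. The gene without the block, Ccdc178, named after its values were seen, was at most 0.0025 FPKM in all 4 HE1 samples and was called higher in mutant HE2 (log2 difference 2.93). In HE2, 10 of the 26 cholesterol synthesis genes were called higher, with Lss at 1.34 and Hmgcs1 at 1.18 on the log2 scale.

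**Figure D5:**
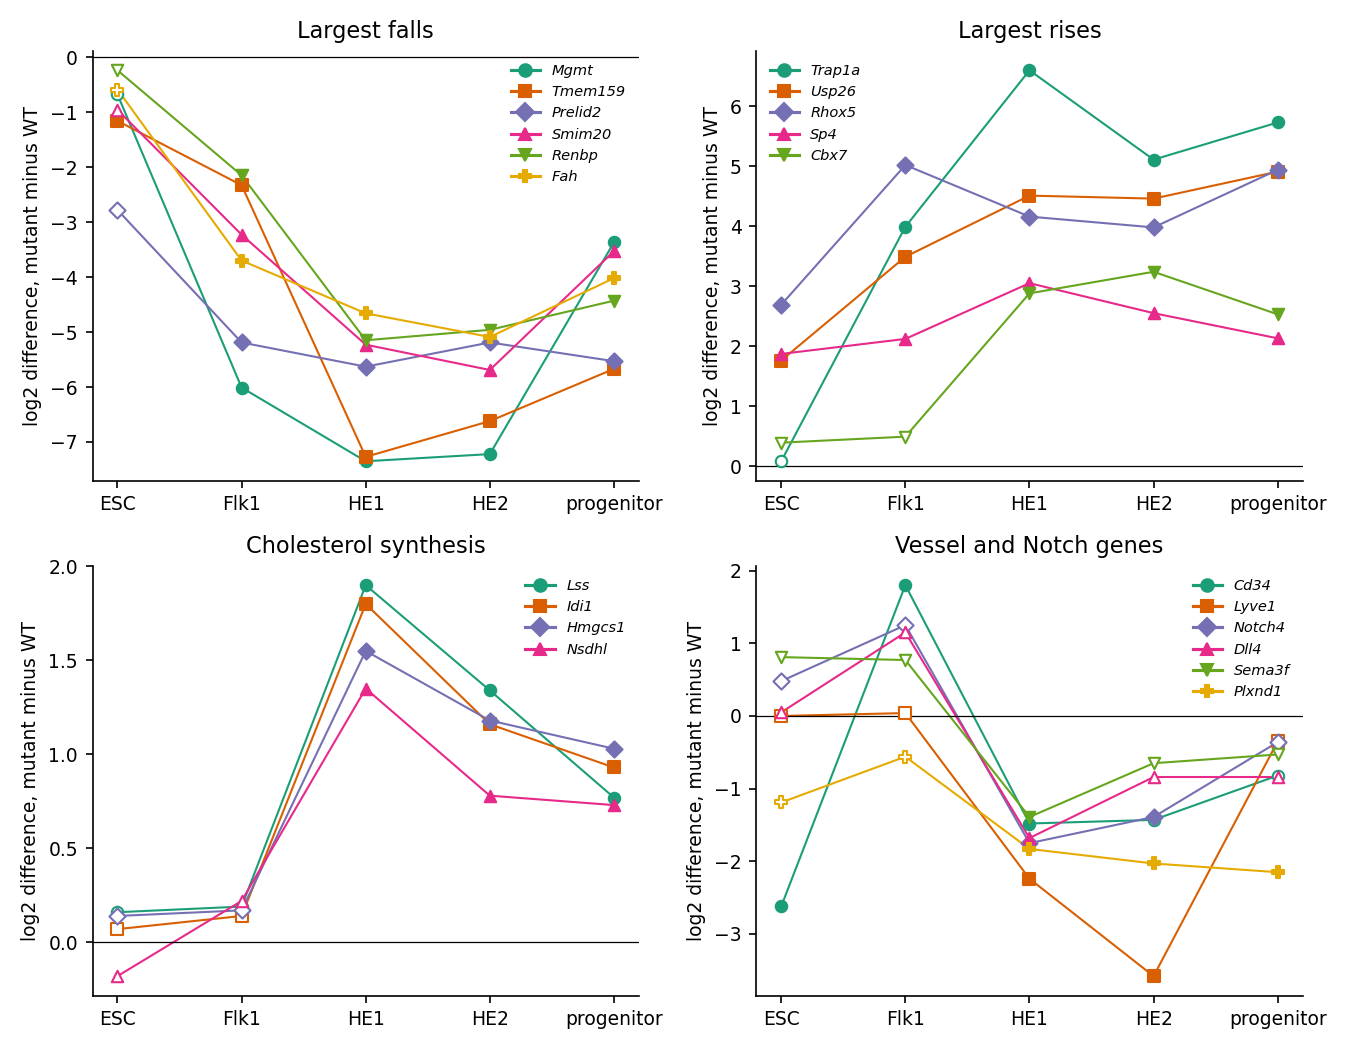
Log2 difference between Sp1 mutant and WT cells (y axis) at the 5 stages from ESC to progenitor (x axis) for genes with the largest falls and rises, cholesterol synthesis genes, and vessel and Notch genes. Filled symbols are called (adjusted p under 0.05) and open symbols are not, and the 4 cholesterol genes lie between -0.18 and 0.22 in ESC and Flk1 cells and between 1.35 and 1.90 in HE1.

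In Sp3KO HE1 cells, which share the WT samples, 6.02% of all genes were called higher and 4.87% lower than in WT. Gstk1 had 14.9 and 17.2 FPKM and H19 501 and 558 FPKM in Sp3KO cells, near the WT values, and Renbp had 44.8 and 46.3 FPKM. Rhox5 (4.32 and 2.50 FPKM), Sp4 (1.65 and 1.57 FPKM) and Cbx7 (2.38 and 1.52 FPKM) were likewise near the WT values. Ctse (10.5 and 9.13 FPKM) and Lpar1 (6.58 and 6.66 FPKM) lay between WT and the Sp1 mutant, as did Crip1 (33.0 and 32.1 FPKM) and Hmgcs1 (113 and 100 FPKM). Lyve1 (1.18 and 2.04 FPKM) was at the level of the Sp1 mutant.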

How the data were processed

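Total RNA was sequenced from sorted populations. Per the labels and the study's methods, the authors aligned reads to mm10 with HISAT2 2.1.0, computed FPKM with StringTie 1.3.3 (versions from the submitters' processing notes) and quantile normalised the values. The deposited unit is FPKM, so the depth of each sample is unknown and limits of detection cannot be given. Here log2(FPKM + 0.1) of the 14525 genes above 1 FPKM in at least 1 sample was fitted with limma 3.58.1 in R 4.3.3 over 30 samples in 15 group means, with an intensity trend, 15 residual degrees of freedom, two-sided tests and Benjamini-Hochberg adjustment at 0.05. Fold changes are on the log2(FPKM + 0.1) scale, which understates those of low genes. The 2 samples of a group are called biological replicates by the study, and p-values measure only the spread between such samples. The lowest value of a sample, shared by many genes after quantile normalisation, is called the lowest value of the table.

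The named genes were Sp1 and Sp3, the 12 largest rises and 12 largest falls with a mean above 3 FPKM, up to 5 called members of each gene list with the smallest p, and the largest differences between stages. Some genes of these rules are not reported here, but are kept in all counts. Other list members named were chosen after their values were seen. The comparison, members and gene lists were chosen with earlier results of these data known. Gene positions are those of GENCODE on GRCm38, and promoters are those of RefSeq. Alternatives were another pseudocount, other filters, median centring, no trend, a GC content and length correction, a culture block, a replicate block, fewer samples and each sample left out. On simulated data for this comparison (14525 genes, 200 changed), 96% of changes of 2 and 63% of changes of 1 on the log2 scale were recovered, and 7.02% of calls were false. The simulated noise was independent between genes and between samples. It held no shared cultures and no GC content effect, both of which the data may hold. These shares therefore do not measure the false calls in the data.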

Additional observations from a re-analysis of the deposited data

Results flagged for a closer look

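For 25 named genes the effect of the mutation in HE1 differed from that in Flk1 cells by limma's interaction term, with adjusted p from 3.92e-06 to 0.0464. Values below are the HE1 effect minus the Flk1 effect on the log2 scale.

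Cholesterol synthesis genes had larger rises in HE1, with differences of 1.71 for Lss, 1.66 for Idi1, 1.38 for Hmgcs1 and 1.13 for Nsdhl. Other rises larger in HE1 were those of Plscr2 (2.64), Cbx7 (2.39), Lpar1 (2.20), Klf8 (1.88) and Ccna2 (0.58). Plscr2 was at most 0.0195 FPKM in all 4 Flk1 samples.

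Larger falls in HE1 were found for Tmem159 (-4.95, a value that depends on the pseudocount since both mutant HE1 samples were at the lowest value), Gstk1 (-3.46), Renbp (-3.00) and Ctsz (-2.28). In vessel genes called lower in HE1 the differences were -3.28 for Cd34, -3.00 for Notch4, -2.84 for Dll4, -2.28 for Lyve1 and -2.16 for Sema3f. Tek also had a negative difference (-2.07) but did not fall in HE1 (0.13, limma adjusted p = 0.876). It was called higher in mutant Flk1 cells (2.19, adjusted p = 0.00015). In all 4 Flk1 samples Lyve1 was at most 0.00584 FPKM, Dll4 at most 0.22 FPKM and Notch4 at most 0.539 FPKM. At such levels the Flk1 part of the difference depends on the pseudocount. The carbonic anhydrase-related gene Car8 (-4.22), the matrix protein gene Tgfbi (-3.74) and Asb4 (-3.61) were called lower in HE1 and not in Flk1 cells. Car8 was at most 0.502 FPKM in all 4 Flk1 samples. The difference between stages was not called without mutant replicate 2 for Tgfbi (adjusted p = 0.215), nor without WT replicate 1 (0.138) or WT replicate 2 (0.0851). For Asb4 it was not called when any 1 HE1 sample was left out (adjusted p up to 0.127, without WT replicate 2). Asb4 had 23.5 and 41.9 FPKM in WT and 4.24 and 4.09 FPKM in mutant HE1, but 41.7 and 51.7 FPKM in WT and 53.8 and 110 FPKM in mutant Flk1 cells.

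The protease gene Hpn (5.44), Aspg (4.73) and Cfc1 (3.47) fell in mutant Flk1 cells and had positive differences between the stages. Hpn was also called lower in ESC (-2.78, adjusted p = 0.0046), and Cfc1 was called in the opposite direction, higher, in ESC (1.5, adjusted p = 0.0238) and in HE1 (adjusted p = 0.0306, lost when any 1 sample was left out), where both WT samples were at the lowest value. Cfc1, a Nodal co-receptor gene, had 99.4 and 108 FPKM in WT and 15.1 and 37.1 FPKM in mutant Flk1 cells and was at most 0.185 FPKM in HE1. Aspg had 5.84 and 6.06 FPKM in WT and 0.0479 and 0.0602 FPKM in mutant Flk1 cells and was at most 0.0672 FPKM in HE1.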

How the results depend on the processing

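Counts of genes called higher and lower were 101 and 119 with the HE1 samples of the 3 genotypes fitted alone, and 0 and 0 by limma with only the 4 samples compared, where 1151 and 1018 had an unadjusted p under 0.05. With 1 HE1 sample left out they ranged from 250 to 725 and from 249 to 657. Genes whose effect differed between HE1 and Flk1 cells numbered 89 to 238 with 1 sample left out. Between HE1 and HE2 there were 6 with a culture block, 2 without the trend and 2 with a pseudocount of 1, 0 with a mean above 1 FPKM (305 unadjusted), and 0 to 2 with 1 sample left out. By the fold rule, 133 genes were higher with a pseudocount of 1, 627 and 840 were higher and lower with no minimum mean, and 80 and 181 when all 4 pairs of samples had to pass. With 1 sample left out they ranged from 206 to 342 and from 343 to 677. Of the 82 named genes called, 41 lost the call without mutant replicate 2, 37 without WT replicate 1, 32 without WT replicate 2, 15 without mutant replicate 1 and 50 with HE1 fitted alone. The causes were not tested.

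Differences that changed sign were never called. With 1 sample left out, that of Sp1 ranged from -0.34 to 0.15 (0.15 without mutant replicate 1), of Tek from -0.24 (without mutant replicate 2; -0.17 without WT replicate 1) to 0.49, of Itga2b from -0.01 (without WT replicate 1) to 0.49, of Kit from -0.61 to 0.16 (without mutant replicate 1, and 0.11 without WT replicate 2), of Fn1 from -0.41 (without mutant replicate 2) to 0.44, and of Krt18 from -4.13 to 0.45 (without mutant replicate 2). With median centring, that of Fn1 was -0.01.

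The labels do not say that equal replicate numbers mark a shared batch, and with 2 pairs the numbers were not taken to pair the samples, although the deviations of the WT and mutant HE1 samples correlated with r = 0.318 over 9596 genes. With a replicate block 925 genes were called higher and 783 lower, 267 differed between HE1 and Flk1 cells, and 0 between HE1 and HE2 (590 unadjusted).

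Alternatives added after the data were seen were the counts in lists and without chromosome 11. Cholesterol synthesis genes called higher numbered 10 to 17, apart from 0 in the fit of 4 samples, and Notch genes called lower 0 to 4.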

Other observations

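The genes of the HE1 difference were followed in Sp3KO cells, which share no sample with the comparison. Of the 826 genes called higher in the Sp1 mutant, 41.8% fell and 18.6% rose from Flk1 to HE1 in Sp3KO cells, against 23.3% and 20.7% of all genes tested. Of the 632 called lower, 30.5% rose and 20.9% fell at this step. From HE1 to HE2, 18.2% of the genes called higher rose and 7.14% fell, 5.54% of those called lower rose and 12.3% fell, and 6.78% of all genes rose and 7.61% fell.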
